A study of Danio rerio with 6 samples.

Results

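Cilia genes were taken as all genes of the table whose symbol begins like an intraflagellar transport (ift), axonemal dynein (dnah, dnai, dnal), dynein assembly (dnaaf, lrrc6, zmynd10), tektin (tekt), radial spoke (rsph), nexin-dynein regulatory complex (drc), Bardet-Biedl (bbs), sperm-associated antigen (spag), cilia and flagella associated protein (cfap) or foxj1 gene. The rule found 87 of 24470 gene IDs, carrying 85 symbols. Of these, 61 were assigned by their known role to the motile axoneme and its assembly, 20 to transport (IFT and BBS genes), and 6 matched by name only, having no axonemal or transport role assigned (spag9a, spag7, cfap36, cfap410, lrrc61 and lrrc66). The label name only does not exclude other roles in cilia.

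Whole zebrafish larvae carrying the transgene Tg(Brn3C:mGFP) were used. In this line Brn3c regulatory sequence, active in hair cells and some retinal ganglion cells, drives a membrane-bound green fluorescent protein in both groups. In the treated group, 3 libraries were made after 48 h in 4-octyl itaconate at 2.5 µM, begun at 3 days post fertilization; this compound is an itaconate ester that enters cells. The other 3 libraries came from control larvae, and all larvae were 5 days old at collection. Neither the control vehicle nor the number of larvae or clutches per library is given in the sources used here. The p-values therefore reflect spread among these samples alone, and that spread may be technical.

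A motile cilium is built around doublet microtubules that carry outer and inner dynein arms, radial spokes and the nexin-dynein regulatory complex. The dynein arms are put together in the cytoplasm by dedicated assembly factors, and the transcription factor Foxj1 switches on the motile program. Every cilium, motile or sensory, is built and maintained by intraflagellar transport (IFT), in which the IFT-B complex carries cargo to the tip and the IFT-A complex brings it back, while the BBSome moves membrane proteins. In zebrafish larvae motile cilia line the pronephric ducts, the brain ventricles and the nasal pits, and photoreceptors, neurons and hair cells carry sensory or primary cilia.

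Expression was given as normalized counts, gene counts divided by 1 factor per library, and the libraries held 14763897 to 23507208 recovered reads. Differences are log2 fold changes, treated minus control, on log2(normalized count + 1), and a gene was called higher or lower at an adjusted p under 0.05 by limma with Benjamini-Hochberg adjustment over the 20352 genes averaging at least 10 normalized counts. Folds are ratios of group means. The 2 groups differed across much of the transcriptome: 69.3% of tested genes were called, 35.0% higher and 34.3% lower, and in 74.1% the libraries of the groups did not overlap. Markers of muscle, liver, neurons and photoreceptors were present in all 6 libraries, in unequal amounts. Skeletal muscle markers made up 13.6% to 16.0% of treated and 1.93% to 2.01% of control normalized counts, and liver markers 2.41% to 2.46% and 0.0604% to 0.0767%. Exocrine pancreas and intestine markers made up 1.06% to 1.89% and 0.0189% to 0.0261%, and 17 of 17 were higher in treated larvae. In whole larvae, fewer cells of a type and less RNA per cell cannot be told apart. The source of the unequal marker amounts between the groups was not tested. Treated replicate 1 stood apart from the other treated libraries in several lists, as given beside the results below.

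The IFT and BBS genes were mostly lower in treated larvae, and most motile axoneme genes did not pass the test. Among the 20 transport genes, all tested, 13 fell, 1 rose and 6 did not pass, with a median log2 fold change of -0.93. Among the 48 motile axoneme genes with enough counts to be tested, 11 fell, 3 rose and 34 did not pass, with a median of -0.27 that turned to 0.04 under upper-quartile scaling, where the median of all tested genes moved to 0.33 from 0.01. The share called was 70.0% for transport genes and 29.2% for axoneme genes, beside 69.3% of all tested genes. The transport share was near the background, though with a different split of directions: 65.0% of transport genes were called lower, beside 34.3% of all genes. Under upper-quartile scaling 7 axoneme genes fell and 4 rose, and 11 transport genes fell and 1 rose. Quantile normalization moved the counts the other way, with 14 axoneme genes fallen and 2 risen, and 15 transport genes fallen and 0 risen. The groups did not overlap in 33.3% of axoneme and 80.0% of transport genes, beside 74.1% of all genes. No test was made of the difference between the axoneme and transport lists.

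**Figure D1:**
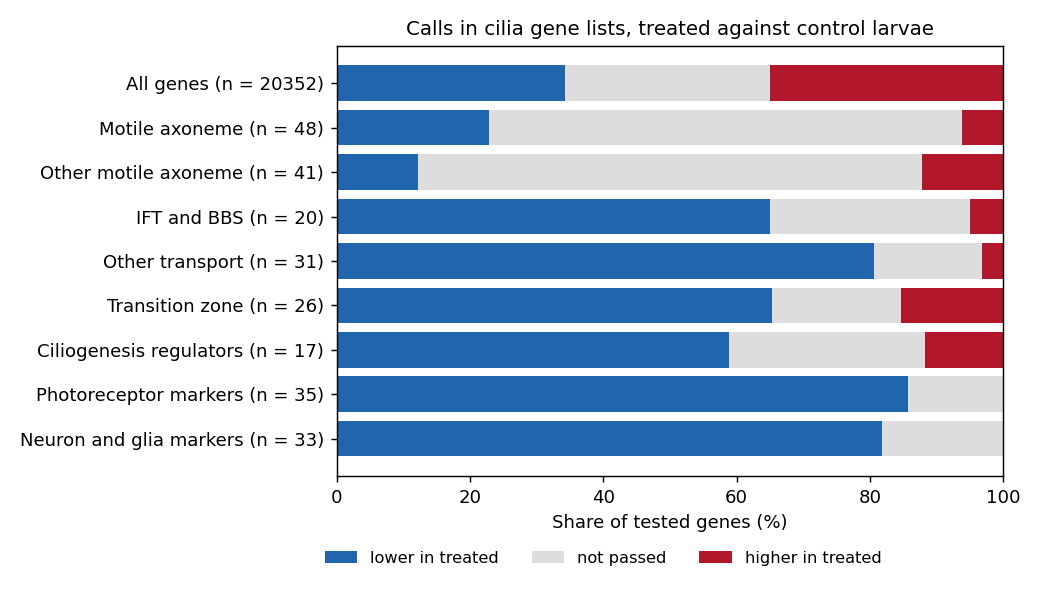
Share of tested genes (%) called lower (blue), called higher (red) or not passing (grey) at an adjusted p under 0.05 in all genes, in the motile axoneme and IFT and BBS members, and in the other lists described in the text, with the number tested beside each name. The grey part is widest in both motile axoneme lists, and the blue part covers 65.0% of the IFT and BBS genes. Under upper-quartile scaling the median of the motile axoneme genes moved from -0.27 to 0.04, and that of all tested genes from 0.01 to 0.33. Motile axoneme members called lower numbered 7 under upper-quartile scaling and 14 under quantile normalization.

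Axoneme genes rested on lower counts, and varied more between libraries of the same group, than transport genes. The median mean level was 35.4 normalized counts for axoneme genes, 225 for transport genes and 181 for all tested genes, and the median standard error of the log2 fold change was 0.43, 0.22 and 0.27. The median SD between treated libraries was 0.58 on the log2 scale for axoneme genes, 0.29 for transport genes and 0.33 for all genes. Between control libraries it was 0.365, 0.18 and 0.214. Bands of mean level were chosen after the values were seen. Between 10 and 30 normalized counts, 4 of 19 axoneme genes were called, beside 48.0% of all genes in that band. Of the 4 called, 2 were lower, beside 17.4% of all genes called lower. The median log2 fold change in that band was 0.10 for axoneme genes and 0.36 for all genes. Between 30 and 100 normalized counts, 5 of 23 axoneme and 3 of 7 transport genes were called, beside 64.5% of all genes. Lower were 4 axoneme and 3 transport genes, beside 24.3% of all genes called lower. The medians there were -0.30 for axoneme, -0.68 for transport and 0.41 for all genes. Between 100 and 300 the counts were 4 of 5 axoneme and 6 of 7 transport genes, all lower, beside 70.3% called and 31.9% called lower among all genes. At 300 or more, 1 of 1 axoneme and 4 of 5 transport genes were called, all lower, beside 79.8% of all genes called and 48.4% called lower. In size the log2 fold change reached 1 in 14 of 48 axoneme and 10 of 20 transport genes, beside 58.0% of all tested genes. Of the 34 axoneme genes that did not pass, 8 had a 95% interval within 1 log2 unit of no change on either side, and 26 had an interval that reached a 2-fold change in at least 1 direction.

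**Figure D2:**
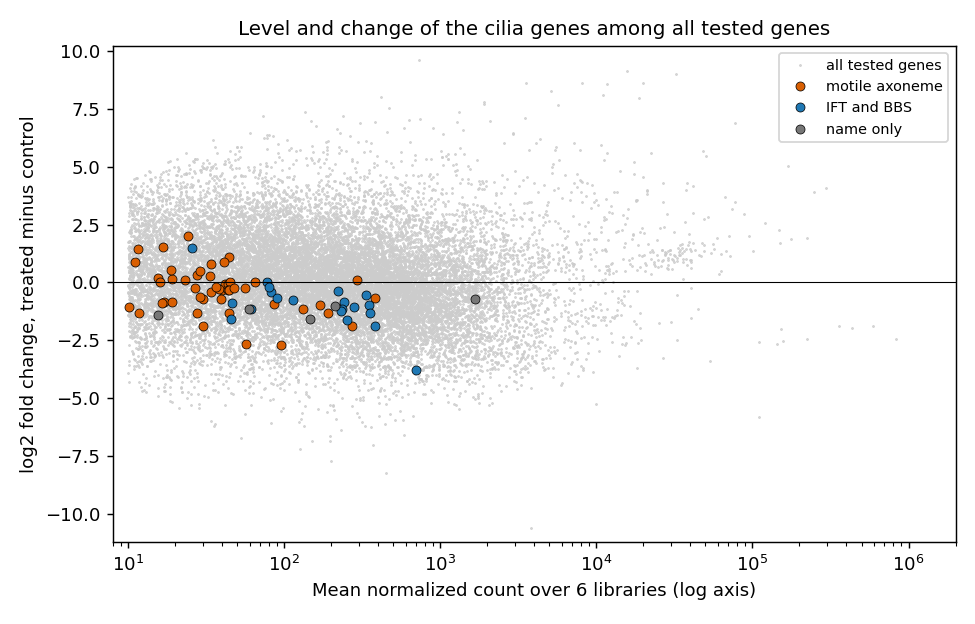
Log2 fold change (treated minus control, y axis) against mean normalized count over the 6 libraries (log x axis) for all 20352 tested genes (small grey points) and the tested cilia genes (large points by class). Most axoneme genes (orange) lie below 100 normalized counts, and the transport genes (blue) lie mostly below 0, with ift88 lowest at -3.79.

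The master regulators of the motile program were called in neither direction. The gene foxj1a, one of 2 zebrafish copies of Foxj1, had 79.6, 45.0 and 74.5 normalized counts in treated replicates 1 to 3 and 61.2, 72.2 and 59.201 in control replicates 1 to 3. These values overlapped, with a log2 fold change of 0.01 (SE 0.30, 95% interval -0.66 to 0.68, adjusted p 0.978). Its paralog foxj1b had 75.1, 23.6 and 38.2 in treated and 52.1, 35.6 and 60.6 in control libraries. Treated libraries held both the highest and the lowest foxj1b value, and its log2 fold change was -0.24 (SE 0.44, interval -1.24 to 0.77, adjusted p 0.65). Neither gene reached an unadjusted p under 0.05 in limma, nor an adjusted p under 0.05 in edgeR or DESeq2.

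Dynein heavy chains, the motor subunits, did not pass either, beside 69.3% of all tested genes called. Of 12 heavy chain genes 10 were tested, and their log2 fold changes ran from -0.93 to 0.90 with a median of -0.22. At an unadjusted p under 0.05 limma gave 0, while edgeR called 0 and DESeq2 called 1 lower, dnah5l. The absence of calls depended on scaling, with 1 heavy chain higher under upper-quartile scaling and 2 lower under quantile normalization. The outer arm heavy chain gene dnah5 had 88.6, 32.6 and 43.0 normalized counts in treated and 26.1, 20 and 35.2 in control libraries. Treated replicate 1 was the highest and treated replicate 2 lay within the control range, and the log2 fold change was 0.90 (adjusted p 0.0914, 0.0448 without treated replicate 2). Its relative dnah5l had 81.8, 40.5 and 50.6 in treated and 154, 56.7 and 135 in control libraries. Control replicate 2 lay within the treated range, and the log2 fold change was -0.93 (adjusted p 0.0782, 0.0223 without treated replicate 1 and 0.0122 without control replicate 2). Another outer arm relative, dnah9l, had a log2 fold change of 0.81 (adjusted p 0.246, 0.0373 without control replicate 1). The symbol dnah11 stood on 2 gene IDs. The first, ENSDARG00000094282, had 26.9, 24.7 and 17.2 in treated and 36.1, 35.6 and 33.8 in control libraries, with a log2 fold change of -0.62 (adjusted p 0.129), and the groups did not overlap. The second, ENSDARG00000077384, was too low to be tested, with treated values of 6.73, 7.87 and 3.82 and control values of 0, 1.11 and 5.64. How reads were divided between the 2 dnah11 IDs is not stated in the labels, so the dnah11 values are uncertain.

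The smaller dynein subunits went both ways. The intermediate chain gene dnai1.2 rose 4.02-fold, from 5.01, 16.7 and 7.05 normalized counts in controls to 29.1, 33.7 and 52.5 in treated libraries (log2 fold change 2.01, SE 0.51, adjusted p 0.00672). All treated values lay above all control values. The light chain gene dnal1 on ENSDARG00000034042 had 213, 75.4 and 90.7 in treated and 443, 410.0 and 407 in control libraries. It was 3.33-fold lower in treated larvae without overlap (log2 fold change -1.88, SE 0.35, adjusted p 0.00127), and treated replicate 1 was the highest of the treated group. A second gene ID with the symbol dnal1, ENSDARG00000097505, was listed at 0 in all 3 controls and at 8.97, 11.2 and 12.4 in treated libraries. Against a floor of 3 reads over the control group it was at least 9.45-fold higher, a bound that covers counting error only, and how reads were divided between the 2 dnal1 IDs is not stated in the labels. The light chain gene dnal4b fell 2.38-fold (log2 fold change -1.30, adjusted p 0.00237), and its paralog dnal4a had a log2 fold change of -0.05 with an interval of -0.78 to 0.68. The inner arm light chain gene dnali1 had a log2 fold change of 0.10 (adjusted p 0.884).

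Of the 8 tested genes for cytoplasmic assembly of dynein arms, 3 fell and 5 did not pass. The share called was 37.5%, all lower, beside 69.3% of all tested genes called and 34.3% called lower. The assembly factor gene spag1a had 281, 286 and 327 normalized counts in treated and 484, 447 and 475 in control libraries. It fell 1.57-fold without overlap (log2 fold change -0.65, SE 0.15, adjusted p 0.00438), and missed the threshold under upper-quartile scaling. Its paralog spag1b fell by 1.33 on the log2 scale at an adjusted p of 0.0487. That call was lost on leaving out any library but treated replicate 3, at adjusted p-values of 0.112 and 0.0743 without treated replicates 1 and 2, and of 0.145, 0.0667 and 0.105 without control replicates 1, 2 and 3. The gene cfap298, whose product takes part in dynein arm assembly, fell 1.96-fold (adjusted p 0.00454). The factors dnaaf1, lrrc6, zmynd10, cfap300 and dnaaf3l did not pass, at -0.72, -0.86, 0.55, 0.89 and -1.04 on the log2 fold change scale, though lrrc6 reached an adjusted p of 0.0334 without control replicate 2.

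Among radial spoke, regulatory complex and tektin genes, 2 rose, 2 fell and 5 did not pass. Over all tested genes 35.0% were called higher and 34.3% lower. The spoke head gene rsph9 had 29.1, 19.1 and 27.7 normalized counts in treated and 6.02, 8.89 and 9.87 in control libraries. It rose 3.07-fold without overlap (log2 fold change 1.51, SE 0.43, adjusted p 0.0126). By contrast the spoke gene rsph10b had 28.0, 20.2 and 25.8 in treated and 65.2, 68.9 and 56.4 in control libraries. It fell 2.57-fold without overlap (log2 fold change -1.34, SE 0.29, adjusted p 0.00327). The spoke head gene rsph4a had a log2 fold change of -0.30 (adjusted p 0.473), and the spoke stalk gene rsph3 one of 1.44 (adjusted p 0.0956, 0.0296 without control replicate 2). The gene drc3 of the nexin-dynein regulatory complex, which links neighbouring doublets, had 22.4, 7.87 and 17.2 in treated and 102, 102 and 88.8 in control libraries. This was a 6.18-fold fall without overlap (log2 fold change -2.66, SE 0.40, adjusted p 0.000357), while drc1 of the same complex had a log2 fold change of -0.86 (adjusted p 0.191). Tektins are filament proteins inside the doublets, and tekt3 had 84.1, 56.2 and 42.0 in treated and 20.1, 23.3 and 39.5 in control libraries. It rose 2.20-fold (log2 fold change 1.11, SE 0.39, adjusted p 0.0292), with the lowest treated value just above the highest control value. The tekt3 call was lost without treated replicates 1 or 2 (adjusted p 0.0792 and 0.0603) and without control replicates 1 or 2 (0.0977 and 0.0819). Log2 fold changes of -0.42 for tekt1 and 0.49 for tekt4 did not pass.

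Of 17 tested genes with cfap symbols 7 fell and 10 did not pass; leaving aside cfap298 and cfap300 of dynein assembly and the name-only genes cfap36 and cfap410, 4 of 13 fell and 9 did not pass. Over all tested genes 34.3% were called lower and 35.0% higher. The products of the remaining 13 cfap genes are varied ciliary proteins. The gene cfap126, named Flattop in mouse, had 24.7, 22.5 and 25.8 normalized counts in treated and 203, 122 and 173 in control libraries. It fell 6.83-fold without overlap (log2 fold change -2.69, SE 0.28, adjusted p 3.75e-05), the largest fall among the tested axoneme members. The inner arm gene cfap100 fell by 1.86 on the log2 scale (adjusted p 0.00721). The genes cfap70, of the outer arm, and cfap97 fell by 1.31 and 1.14 (adjusted p 0.0247 and 0.017). The cfap70 call was lost without treated replicate 1 (adjusted p 0.0509) or control replicate 1 or 3 (0.0843 and 0.0795), and the cfap97 call without control replicate 2 (0.0632). The 9 that did not pass ran from -0.83 for cfap157 to 0.34 for cfap52 on the log2 scale. Among them cfap20 and cfap45, whose products lie on or in the doublet microtubules, had intervals of -0.43 to 0.69 and -0.84 to 0.35. The gene spag6 of the central apparatus had a log2 fold change of -0.07 and an interval of -0.94 to 0.80.

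**Figure D3:**
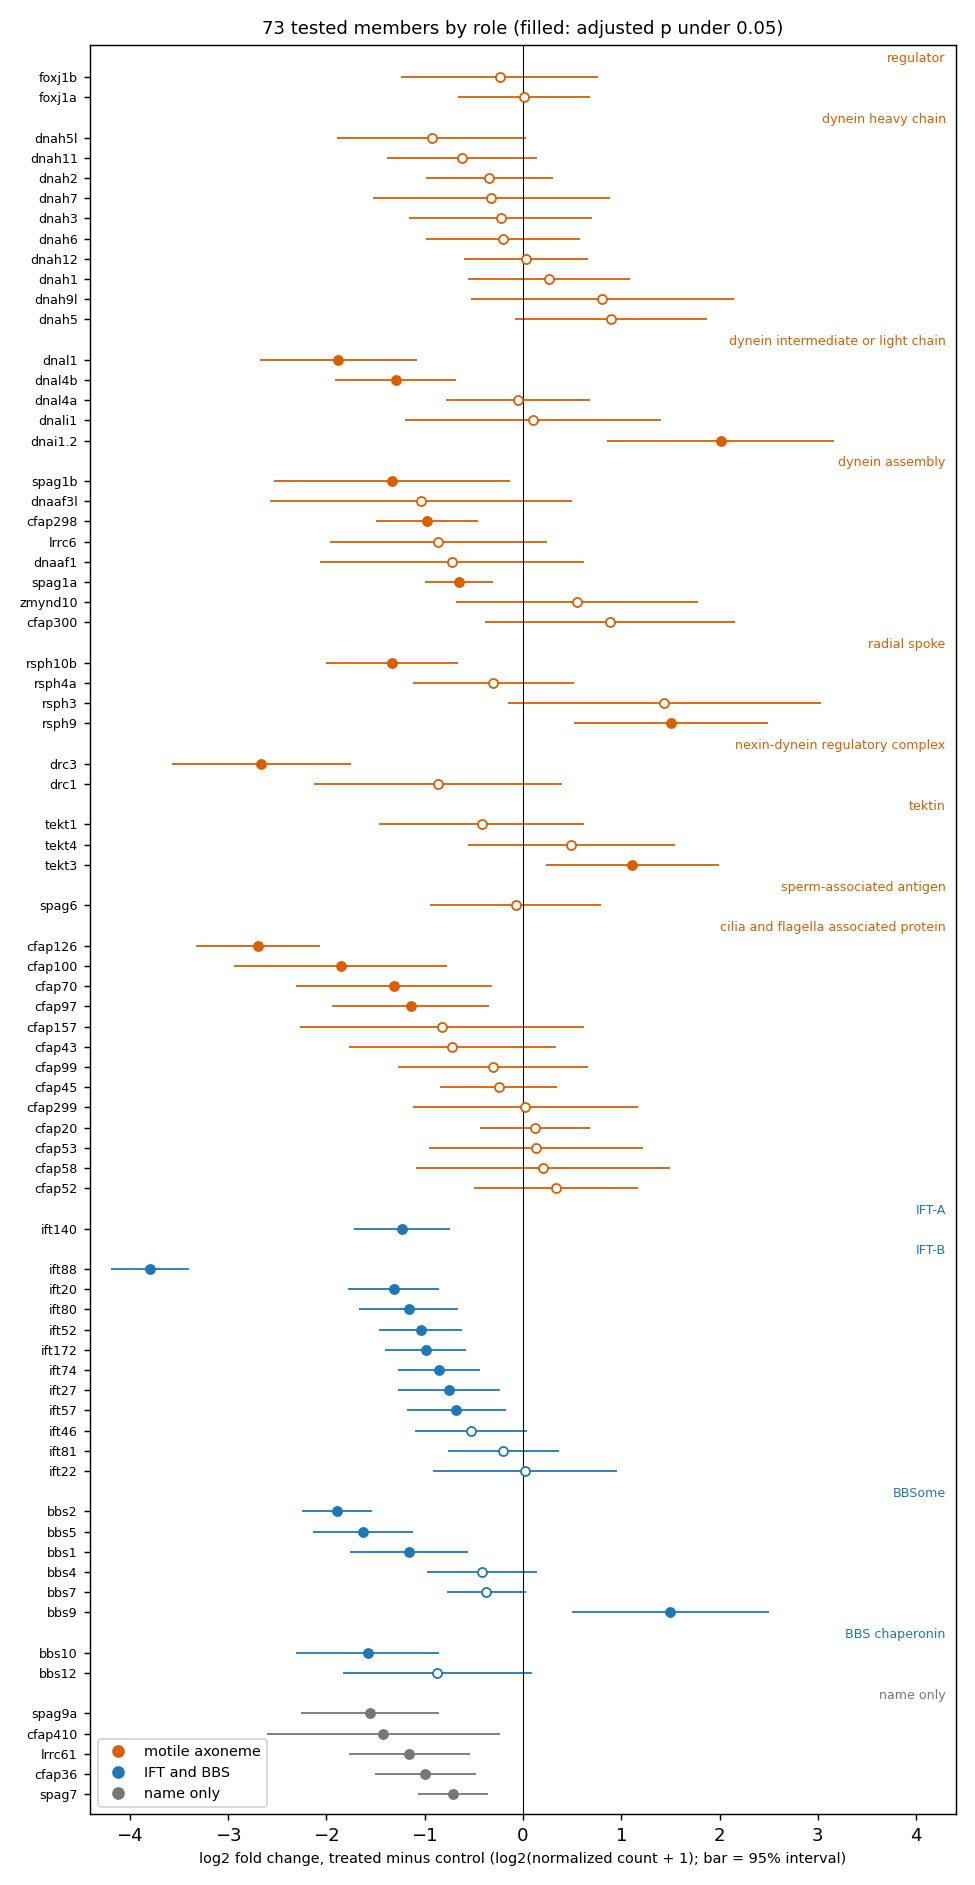
Log2 fold change (treated minus control) with its 95% interval for each of the 73 tested members, grouped by role, with filled points for an adjusted p under 0.05. The intervals of all 10 heavy chains cross 0, while 8 of 11 IFT-B genes lie wholly below 0.

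A further 13 axoneme members had means under 10 normalized counts and were not tested. The treated mean was above the control mean in 11 of them (84.6%), beside 56.4% of 4099 genes under the same limit. In the fit with no filter on low values 5 of the 13 were higher and 1 lower at an adjusted p under 0.05, beside 27.2% of those 4099 genes called in either direction. The higher ones were tekt2, cfap161, dnah9, rsph14 and the second dnal1, and the lower one was dnai2a. The tektin gene tekt2 had 26.9, 8.999 and 10.5 normalized counts in treated and 0, 3.33 and 0 in control libraries. The intermediate chain gene dnai2a had 1.12, 0 and 1.91 in treated and 14.0, 6.67 and 7.05 in control libraries, opposite to its paralog dnai2b at 5.61, 10.1 and 9.55 against 5.01, 3.33 and 0, which did not pass (adjusted p 0.0835). At such levels 1 library differs from another by a few reads.

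Intraflagellar transport genes fell as a majority, 8 of the 11 IFT-B genes and the single IFT-A gene matched by the rule. The share of IFT-B genes called, 72.7%, was near the 69.3% of all tested genes. All called IFT-B genes were lower, while 34.3% of all tested genes were called lower. The IFT-B core gene ift88 had 89.7, 91.1 and 96.4 normalized counts in treated and 1436, 1070.0 and 1411 in control libraries. It was 14.1-fold lower in treated larvae (log2 fold change -3.79, SE 0.17, adjusted p 1.17e-06), the largest change of any tested member, with treated values close together and far below every control. Among genes with ift symbols the next largest fall was in ift20, a small IFT-B subunit also found at the Golgi in mammalian cells. It had 267, 168 and 184 in treated and 505, 526 and 482 in control libraries, 2.45-fold lower without overlap (log2 fold change -1.31, SE 0.20, adjusted p 0.000424). The other fallen IFT-B genes were ift80 (2.20-fold), ift52 (2.08-fold), ift172 (1.97-fold), ift74 (1.81-fold), ift27 (1.69-fold) and ift57 (1.61-fold). The ift27 call was lost without treated replicate 3 (adjusted p 0.0535) or control replicate 1 (0.0728), and the ift57 call without treated replicate 3 (0.0548) or control replicate 2 or 3 (0.0749 and 0.0538). The IFT-A gene ift140, needed for return transport, had 174, 125 and 115 in treated and 370.0, 296 and 299 in control libraries. This was 2.33-fold lower without overlap (log2 fold change -1.23, SE 0.22, adjusted p 0.000897). Genes of IFT subunits without ift symbols lie outside the naming rule and were counted with the other transport genes below. Among them the IFT-A genes wdr35 and wdr19 fell 10.7-fold and 3.25-fold, and ttc21b was not called (adjusted p 0.248). The IFT-B genes cluap1 and ttc26 fell 4.14-fold and 3.16-fold, and traf3ip1 was not called (adjusted p 0.427).

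Members of the same IFT-B complex were unequal. The tubulin-binding subunit gene ift81 had 94.2, 63.0 and 67.8 normalized counts in treated and 82.2, 91.1 and 81.7 in control libraries, and the groups overlapped. Its log2 fold change of -0.20 had an interval of -0.77 to 0.37, which lies above the interval of ift88, -4.19 to -3.40. Its binding partner ift74 fell by 0.85 on the log2 scale. The small GTPase gene ift22 had a log2 fold change of 0.02 (interval -0.92 to 0.95), and ift46, which carries outer arm dynein into cilia in algae, had one of -0.53 (adjusted p 0.0859, 0.0117 without treated replicate 1 and 0.0429 without control replicate 2).

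**Figure D4:**
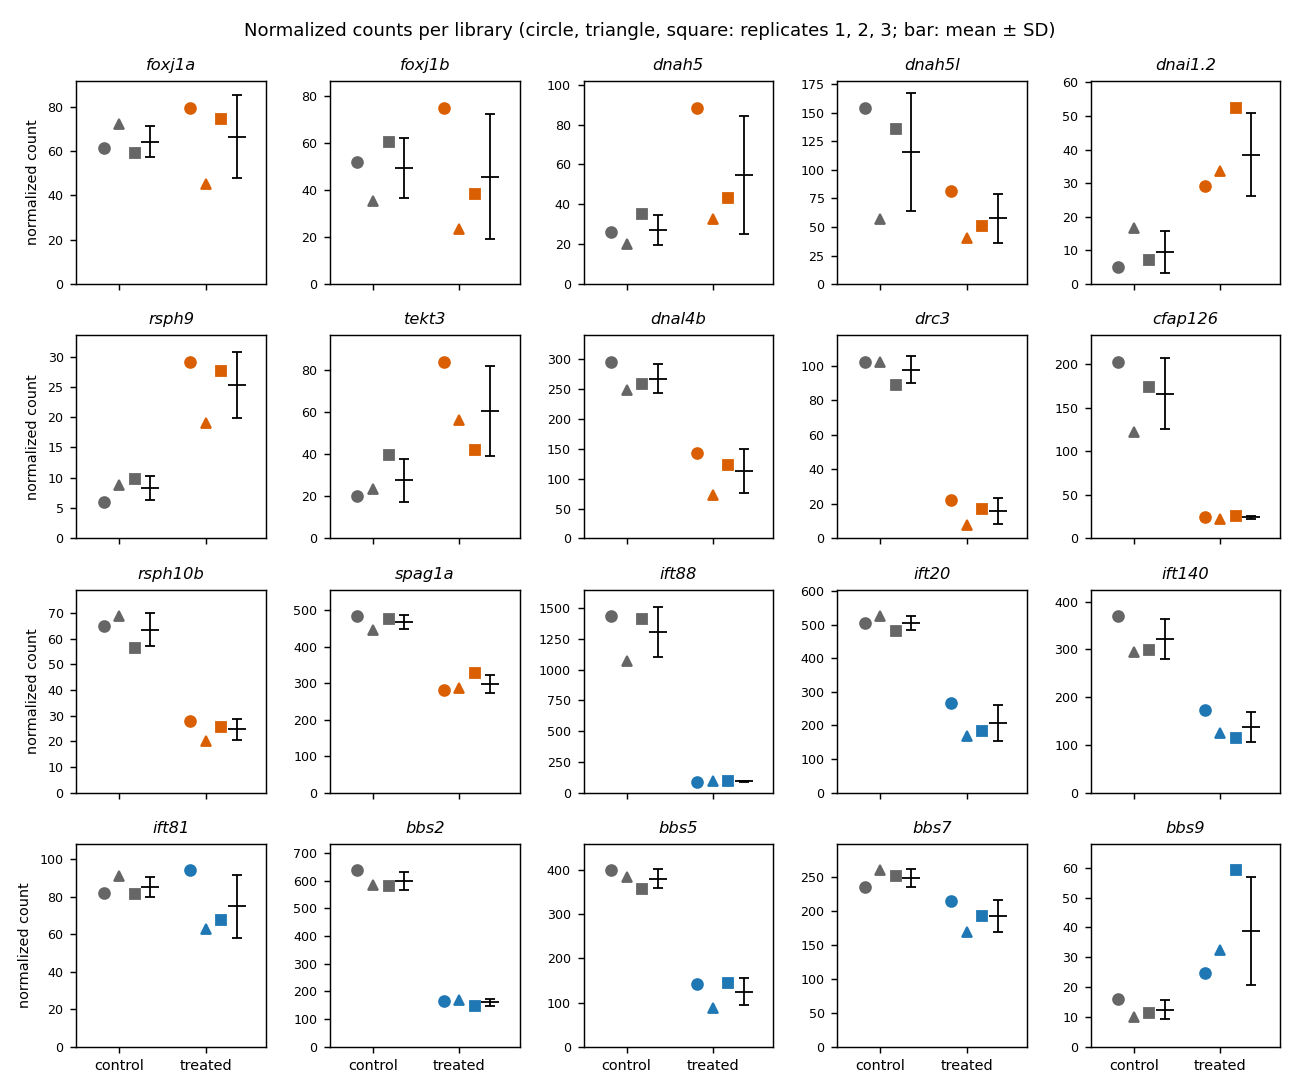
Normalized counts of 20 members in each library (grey for control, orange for treated axoneme genes and blue for treated transport genes; circle, triangle and square for replicates 1, 2 and 3) with mean ± SD, each axis starting at 0. Treated and control values are widely apart in ift88, bbs2, cfap126 and drc3, overlap in foxj1a, foxj1b and ift81, and are reversed in dnai1.2, rsph9, tekt3 and bbs9.

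Of the 6 BBSome genes matched by the rule 3 fell, 1 rose and 2 did not pass. Under quantile normalization 4 fell and 0 rose. Called genes made up 66.7%, near the 69.3% of all tested genes, of which 34.3% were called lower. The BBSome genes ttc8 and bbip1 lie outside the naming rule and were counted with the other transport genes below. Both fell, 3.51-fold and 1.48-fold (adjusted p 0.00059 and 0.0468). The core subunit gene bbs2 had 165, 171 and 148 normalized counts in treated and 638, 583 and 579 in control libraries. It fell 3.72-fold without overlap (log2 fold change -1.89, SE 0.16, adjusted p 1.14e-05). The subunit genes bbs5 and bbs1 fell 3.04-fold and 2.26-fold (adjusted p 0.000221 and 0.00376). In bbs4 and bbs7 the groups did not overlap, but the log2 fold changes of -0.41 and -0.37 did not pass (adjusted p 0.162 and 0.0877; bbs7 0.0317 without treated replicate 1). The subunit gene bbs9 went the other way, with 24.7, 32.6 and 59.18 in treated and 16.04, 10.0 and 11.3 in control libraries. It rose 3.12-fold without overlap (log2 fold change 1.499, SE 0.44, adjusted p 0.014), and treated replicate 3 was the highest. Without that library the adjusted p was 0.0685, and under quantile normalization the rise also missed the threshold.

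Proteins of the BBS chaperonin group help assemble the BBSome. The gene bbs10 had 24.7, 16.9 and 25.8 normalized counts in treated and 61.2, 84.4 and 60.6 in control libraries. It fell 3.06-fold without overlap (log2 fold change -1.58, SE 0.32, adjusted p 0.00207). Its partner bbs12 had a log2 fold change of -0.87 (adjusted p 0.0935, 0.0156 without treated replicate 1).

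The genes matched by name only fell in 5 of 5 tested cases, with lrrc66 too low to test. Among all tested genes 69.3% were called and 34.3% were called lower. The gene spag7 had 1032, 1346 and 1442 normalized counts in treated and 2049, 2133 and 2028 in control libraries, a 1.63-fold fall (adjusted p 0.00313). The gene spag9a, which codes for a kinase scaffold that binds motor proteins, had 80.7, 105 and 45.8 in treated and 198, 251 and 204 in control libraries, a 2.83-fold fall (adjusted p 0.00182). The gene cfap36 fell 2.03-fold (adjusted p 0.00386), from 367, 228 and 261 in control to 121, 150 and 151 in treated libraries. In lrrc61 the fall was 2.24-fold (adjusted p 0.00446), from 84.2, 77.8 and 83.2 to 42.6, 38.2 and 28.6. A fall of 1.42 on the log2 scale in cfap410 (adjusted p 0.0361; treated 6.73, 8.999 and 6.68, control 27.1, 11.1 and 32.4) was lost on leaving out any library but control replicate 2, at adjusted p-values of 0.0551, 0.0504 and 0.0849 without treated replicates 1, 2 and 3 and of 0.118 and 0.134 without control replicates 1 and 3.

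Summed over members, axoneme genes gave 3138, 1885 and 2237 normalized counts in treated replicates 1 to 3 and 3639, 3390.0 and 3466 in control replicates 1 to 3. Transport genes gave 2814, 2192 and 2297 in treated and 6368, 5574 and 5948 in control libraries. Every treated sum lay below every control sum. The control mean was 1.45 times the treated mean for axoneme genes and 2.45 times for transport genes. Genes with many counts weigh most in such sums. Averaged on the log2 scale over tested members, each weighted equally, axoneme genes did not separate the groups. Treated replicate 1, at 5.444, lay above the controls, at 5.324, 5.313 and 5.333. Treated replicates 2 and 3 lay below them, at 4.642 and 4.913. For transport genes every treated average lay below every control average. The axoneme sum divided by the transport sum was 0.983 ± 0.128 (SD, n = 3) in treated and 0.587 ± 0.0187 (SD, n = 3) in control libraries, and these did not overlap. Without ift88, an alternative chosen after its value was seen, the ratios were 1.02 ± 0.127 (SD, n = 3) and 0.751 ± 0.013 (SD, n = 3).

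Among treated libraries replicate 1 was most often the highest, and replicate 2 most often the lowest, in axoneme genes. Replicate 1 was the highest treated library in 39 of 48 tested axoneme genes (81.2%) and in 12 of 20 transport genes (60.0%), beside 39.4% of all tested genes. Replicate 2 was the lowest in 56.2% of axoneme genes, beside 31.9% of all tested genes. Summed markers of photoreceptors (93362, 19973 and 35843 normalized counts in treated replicates 1 to 3), hair cells (12114, 7248 and 8015) and olfactory epithelium (1736, 842 and 929) were also highest in replicate 1. Pronephros markers were lowest there (7827, 10175 and 9172), and neuron and glia markers were highest in replicate 2 (33475, 35104 and 26939). The part of these cell types in the axoneme values was not tested. Without treated replicate 1, 2 axoneme genes rose and 10 fell, and 1 transport gene rose and 16 fell.

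Cilia genes outside the naming rule were looked at in 4 further lists. Of 41 tested genes of a second motile axoneme list, 5 rose, 5 fell and 31 did not pass (median log2 fold change 0.19). The share called was 24.4%, beside 69.3% of all tested genes. The fallen genes included ttll6, a tubulin glutamylase (3.56-fold), iqcd (6.56-fold) and ak7a, an adenylate kinase (3.27-fold). The risen genes included capsla (4.86-fold), tppp3, a tubulin polymerization promoting protein (1.76-fold), and meig1 (2.01-fold). Under upper-quartile scaling 8 rose and 5 fell, under quantile normalization 2 rose and 8 fell, and without treated replicate 3 or control replicate 3 the number that rose was 2 or 3.

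Of 31 other transport genes, 25 fell, 1 rose and 5 did not pass, with a median of -1.70. In this list 83.9% were called and 80.6% called lower, beside 69.3% and 34.3% of all tested genes. Several genes of the kinesin-2 family, which includes the motor that drives IFT outward, were among the fallen. Of these kif3a fell 4.59-fold (adjusted p 8.08e-06), kif3b 2.925-fold (5.01e-05), kifap3a 5.49-fold (4.75e-06) and kif3cb 7.41-fold (9.69e-06). The kinesin-2 genes kif3ca and kif17 had log2 fold changes of -0.03 and -0.35 and were not called (adjusted p 0.934 and 0.73). The risen gene was arl3a, a small GTPase gene (3.39-fold, adjusted p 0.00537).

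The transition zone is the gate at the base of the cilium, and of its 26 tested gene IDs 17 fell, 4 rose and 5 did not pass, with a median of -1.05. This made 80.8% called and 65.4% called lower, beside 69.3% and 34.3% of all tested genes. Falls were largest for rpgrb (15.2-fold), rpgrip1 (11.6-fold) and cep290 (8.86-fold), genes whose human counterparts are linked to retinal degeneration. Rises included those of invs (2.19-fold), tmem17 (1.81-fold) and 1 of 2 gene IDs that the files call tmem107, the other of which fell; the names table calls the risen ID TMEM128. The risen ID was kept in the list, and so in its counts and median. Under quantile normalization 1 transition zone gene ID rose and 18 fell, and without treated replicate 3 the number that rose was 2. Among 17 tested genes of a list of ciliogenesis regulators and relatives, 10 fell, 2 rose and 5 did not pass. The list takes in many rfx family genes, rfx5 among them, and a part of each listed gene in ciliogenesis was not tested. The share called, 70.6%, was near the 69.3% of all tested genes, while 58.8% were called lower, beside 34.3%. The falls with the smallest p were those of rfx7b (7.36-fold), irx2a (5.53-fold) and irx1a (6.32-fold), and the risen genes were myb (1.75-fold), which acts in multiciliated cells, and tp73 (5.99-fold). The factors rfx2 and rfx3, which act with Foxj1 on ciliary genes, had log2 fold changes of -0.30 (adjusted p 0.252) and -0.06 (adjusted p 0.859).

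Markers of cell types that carry cilia were called in shares to be read beside the 69.3% of all tested genes called, 35.0% higher and 34.3% lower. The share called was 85.7% for photoreceptor, 81.8% for neuron and glia and 84.2% for pronephros markers, and 62.5% for both hair cell and olfactory markers. Photoreceptor markers were lower in 30 of 35 genes, with summed levels of 19973 to 93362 normalized counts in treated and 209475 to 301367 in control libraries. Neuron and glia markers were lower in 27 of 33 genes, with sums of 26939 to 35104 and 183926 to 196702. Olfactory epithelium markers were lower in 3 and higher in 2 of 8 tested genes (sums 842 to 1736 and 3869 to 5216). The control olfactory sums rested largely on gng13b (3752, 3091 and 2591). Averaged on the log2 scale over tested olfactory markers, treated replicate 1 (7.283) lay within the range of the controls (7.022, 7.333 and 7.14). The olfactory marker trpc2b, too low to test, was at 0 in all controls. No other marker in these lists was at 0 throughout a group. Markers of cerebrospinal fluid-contacting neurons, floor plate and midline were lower in 11 and higher in 1 of 16 genes. Hair cell markers were higher in 9 and lower in 6 of 24 tested genes (sums 7248 to 12114 and 4230.0 to 4563). The treated hair cell sums rested largely on pvalb8 (6294, 3169 and 3532) and s100t (2643, 1567 and 1875). Control values were 414, 483 and 417 for pvalb8 and 249, 233 and 297 for s100t. Pronephros markers were higher in 10 and lower in 6 of 19 tested genes (sums 7827 to 10175 and 8544 to 9507). The part of these cell types in the fall of the transport genes and in the values of the axoneme genes was not tested.

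**Figure D5:**
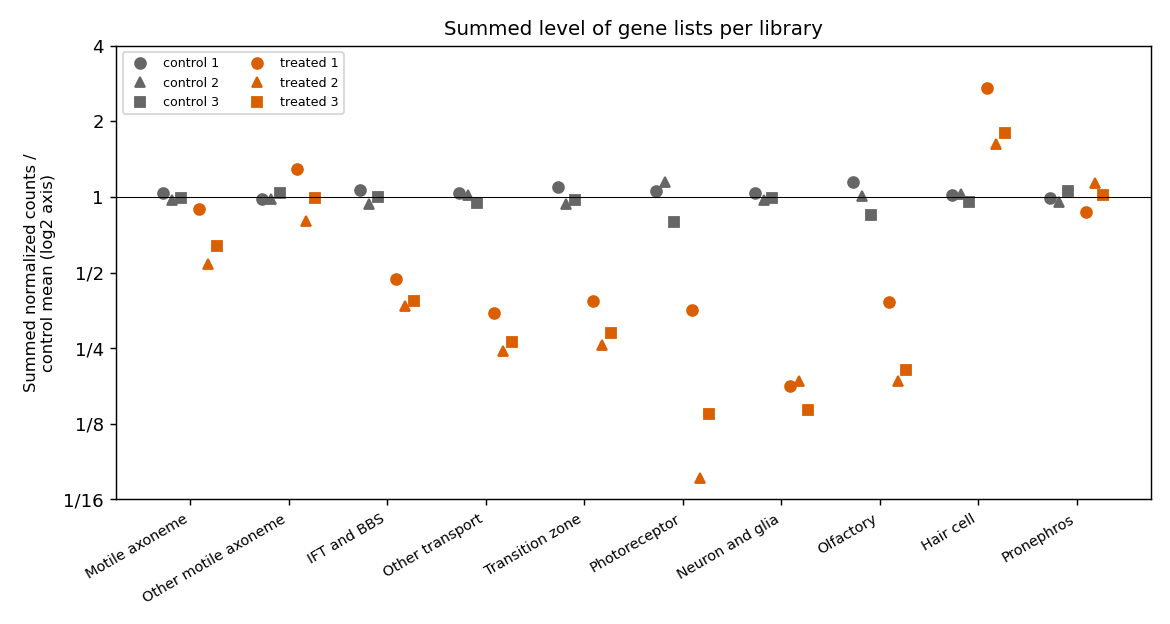
Summed normalized counts of each list in each library, divided by the mean of the 3 controls (log2 axis; circle, triangle and square for replicates 1, 2 and 3). Motile axoneme members, IFT and BBS genes, other transport genes and transition zone genes lie below the controls in all treated libraries. The same holds for photoreceptor, neuron and glia, and olfactory markers, though the control olfactory sums rest largely on gng13b. Treated replicate 1 is the highest treated library in every list shown except the neuron and glia and the pronephros markers.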

How the data were processed

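The authors deposited a table of signal values for 6 libraries, namely normalized counts of each gene. The submitters' processing notes name build GRCz11 and the tools Salmon 1.9.0, STAR 2.7.10a, fastp 0.23.2 and bcl2fastq 2.20.0.422, as well as DESeq2 without a version. What each tool did, and how reads shared between copies or strands were handled, is not given in the sources used here. Genes with a mean of at least 10 were tested (20352; 4118 left out) in R 4.3.3 using limma 3.58.1 (intensity trend, two-sided) on log2(normalized count + 1), which understates changes of low genes. Intervals are 95%. An exact permutation test of 3 against 3 libraries has a smallest p of 0.1, and limma reaches lower values by sharing the spread across genes. To recover whole reads, each library was divided by its smallest step (100% of values within 0.01 of a whole number). These reads were used for depth, for the floor of 3 reads and for the alternatives with edgeR 4.0.16 and DESeq2 1.42.0; for control replicate 1 the step lies near 1 and the recovery rests on the same agreement. The fits were checked on simulated data in which few genes changed. That check does not cover differences across much of the transcriptome, as found here.

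The members, roles and gene lists were chosen with earlier results of these data known, from names and known functions, and a few entries were corrected after the table was opened. The gene hspb11, higher in treated larvae, was taken out of the other transport list after its value was seen, because the names table calls its gene ID hspb9l, so it is not the IFT gene meant. Values per library are given for foxj1a and foxj1b, for the called member with the smallest p in each role and direction, for the 4 largest rises and falls (mean of at least 50 in the higher group), and for members at 0 in a group, sharing a symbol or in counts of 5 or fewer; other members, such as dnah5, dnah5l, ift81, ift20 and those under the filter, were chosen after their values were seen. From the other cilia lists up to 3 members with the smallest p per direction are named, with a few more as context, and 1 of them is not reported here. No sequence, coordinate or gene length was used here. Alternatives covered pseudocounts, filters, scalings, limma weights, the replicate number, each library left out and both count tools. Figures used Python 3.11.15 and matplotlib 3.10.9.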

Additional observations from a re-analysis of the deposited data

How the results depend on the processing

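All 17 alternatives were recomputed for every tested member. Wherever they could be tested, calls or their absence were the same for 36 of 48 axoneme, 13 of 20 transport and 4 of 5 name-only genes. The median of the axoneme genes moved to 0.042 under upper-quartile scaling, where the median of all tested genes moved from 0.014 to 0.33. With no filter on low values 9 cilia genes rose, 8 of them axonemal, since more genes were tested. With a mean of at least 50 required, fewer were tested: 0 cilia, 0 axoneme, 0 transport and 0 transition zone genes rose, 7 axoneme genes fell, 3 genes of the second motile axoneme list rose and 2 fell, and 0 other transport genes and 1 regulator rose. Under upper-quartile scaling 7 axoneme genes fell and 8 of the second axoneme list rose. Under quantile normalization 2 cilia, 0 transport, 2 second-list and 1 transition zone genes rose, and 14 axoneme and 8 second-list genes fell. The cause was not tested for the scalings. Without cfap and spag genes 4 axoneme genes fell, fewer genes being counted. Without ift88 the control ratio of axoneme to transport sums was 0.751. Leaving out each library in turn gave 25 to 30 fallen cilia genes, 9 to 11 fallen axoneme and 11 to 16 fallen transport genes. The risen numbered 3 to 4, 2 to 3 and 0 to 1, and 2 to 4 in the second axoneme list and 2 to 4 in the transition zone. By edgeR and by DESeq2 alike, 4 cilia genes rose and 29 fell. Same-numbered libraries did not deviate together (correlations of -0.02, -0.06 and 0.05, and only treated replicate 3 correlated best with its own number), so the numbers were not taken to pair the samples; with the replicate block, 3 cilia genes rose and 28 fell, and it ended the calls of tekt3, spag1b and cfap410 and made one for dnah5l. Of the 34 axoneme genes that did not pass, 26 had intervals that reached a 2-fold change.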
